A study of Homo sapiens with 8 samples.

Results

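The keratins described here are 10 genes chosen around KRT7, a keratin gene whose RNA was higher in HCT116 cells carrying GNAS R201C than in their parental line. They are the 7 type II keratin genes KRT5, KRT7, KRT8, KRT80, KRT81, KRT83 and KRT86 and the 3 type I keratin genes KRT18, KRT19 and KRT23, found by gene identifier among the 60609 rows of the deposited count table. Of the 10, 8 lie on chromosome 12 and 2 on chromosome 17, and coordinates below are those of GENCODE 29 on GRCh38. The choice was made with the contrast between mutant and parental cells known, so the members' levels and differences are given as a description and carry no test. HCT116 is an established human colon cancer cell line. RNA was sequenced from 4 libraries of parental cells, wild type for GNAS and labelled as control, and from 4 libraries of a derivative made with CRISPR-Cas9 that carries R201C on one GNAS allele (GNAS R201C/+, called mutant below). Both groups grew in the same serum-containing medium, and the labels name no other agent. The labels do not say whether the derivative is a single clone or whether replicates are separate cultures, so p-values reflect only how much these libraries vary, possibly for technical reasons. A difference between the lines cannot be told apart from a difference between clones.

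Keratins are the intermediate filament proteins of epithelial cells, and each filament is built from pairs of 1 type I and 1 type II chain, so a cell needs both. KRT8 with KRT18 is the usual pair of simple epithelia such as the lining of the gut, where KRT19 is a further type I partner. KRT7 is a type II keratin of glandular and ductal epithelia that is usually low in colon, and KRT5 is the type II keratin of the basal layer of stratified epithelia. KRT81, KRT83 and KRT86 are type II keratins of the hair shaft.

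The libraries held 42584988 to 50986733 counted reads, reads in 24429 to 25079 genes, and 5.34% to 5.82% of reads from mitochondrial genes, with overlapping ranges in both groups for depth and mitochondrial share. GNAS itself stood at 660 to 700 CPM (reads scaled to one library size with TMM factors) in the parental and 695 to 722 in the mutant libraries, and the level of a gene with a point mutation does not check the label. As a check of the labelled cell type, the epithelial markers EPCAM, CDH1, CLDN3, CLDN4 and CLDN7 and the colon marker CDX2 were detected, while the intestinal markers CDX1 and PHGR1 were listed at 0 and 5 others, VIL1, LGALS4, CDH17, GPA33 and CEACAM5, had at most 10 reads in a library. Of all 15751 genes tested, edgeR's quasi-likelihood test with Benjamini-Hochberg adjustment called 7577, or 48.1%, at an adjusted p under 0.05, with 24.1% higher and 24.0% lower in the mutant.

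The hair keratins sit close together on chromosome 12 and are near-copies of each other, which bears on every count given for them. The following 90-base coding stretches show this: they are the window in which KRT81, KRT86 and KRT83 differ least, with the aligned stretch of KRT7 added as a more distant type II gene. Each is read 5′ to 3′ on the coding strand from GENCODE 29 transcripts on GRCh38, and capitals mark bases that differ from KRT81.
KRT81: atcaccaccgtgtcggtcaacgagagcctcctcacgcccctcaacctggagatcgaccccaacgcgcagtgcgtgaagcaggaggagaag
KRT86: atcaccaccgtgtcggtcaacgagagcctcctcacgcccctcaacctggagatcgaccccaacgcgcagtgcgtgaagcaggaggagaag
KRT83: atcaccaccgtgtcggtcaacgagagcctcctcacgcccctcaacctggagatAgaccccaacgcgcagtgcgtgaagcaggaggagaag
KRT7: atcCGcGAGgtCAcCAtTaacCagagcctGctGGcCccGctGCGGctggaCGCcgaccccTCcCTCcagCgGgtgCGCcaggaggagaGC
The KRT81 stretch lies in exon 1 of 9 at chr12:52291145-52291234 on the minus strand, and that of KRT86 in exon 1 of 9 at chr12:52302148-52302237 on the plus strand. The KRT83 stretch lies in exon 1 of 9 at chr12:52321000-52321089 on the minus strand. That of KRT7, in exon 1 of 9 at chr12:52233483-52233572 on the plus strand, is shown for contrast. KRT86 had 0 differences from KRT81 over these 90 bases and KRT83 had 1, while KRT7 had 35.

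Over whole proteins translated from the annotation, KRT81 was 94.2% identical to KRT86 and 95.9% identical to KRT83, whereas KRT7 was 51.4% identical to KRT81, 63.1% to KRT8 and 43.9% to KRT80. Of all 75-base stretches in the principal transcript, 36.6% in KRT81 and 32.6% in KRT86 also occurred in a transcript of another gene, mostly in each other (33% and 30.3%). The share was 3.55% for KRT83, 2.44% for KRT5, and 0% for KRT80 and KRT19. For KRT7 it was 9.05%, all of it with KRT7-AS, an annotated antisense RNA on the opposite strand. KRT8 shared 17.8%, mostly with pseudogenes of its own such as KRT8P3 (10.5%), and KRT18 shared 25.5%, of which 19.7% with KRT8, whose exons overlap those of KRT18 by 525 bases on the opposite strand. The sources used here give neither the treatment of reads that match several genes nor the strand setting of the counting. Counts of KRT81, KRT86 and, to a lesser extent, KRT83 are therefore uncertain between the copies, and so are those of KRT8 and KRT18 in their overlap.

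**Figure D1:**
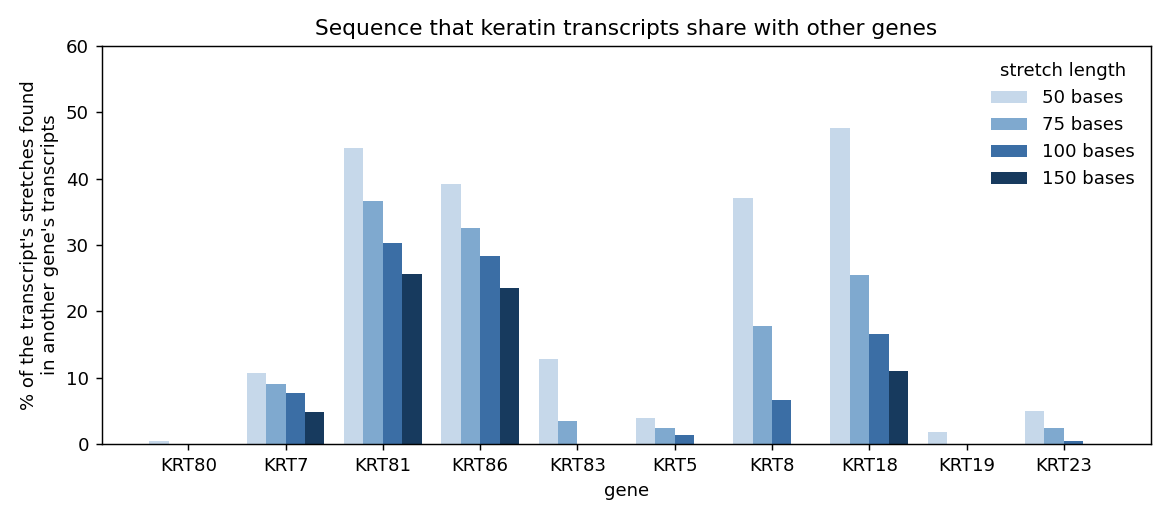
Percentage of 50-, 75-, 100- and 150-base stretches of each keratin gene's principal transcript that also occur in a transcript of another gene (GENCODE 29, both strands). At 75 bases KRT81 (36.6%) and KRT86 (32.6%) share the most, and KRT80 and KRT19 share none.

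KRT7 (12:52232520-52252186, plus strand) was the type II keratin next in level to KRT8 in both groups, and a much larger part of the type II level in the mutant. Its level was 45.2, 47.8, 50.3 and 46.6 CPM in parental replicates 1 to 4, and 321, 308, 286 and 266 CPM in the mutant. Every mutant library was above every parental one. The means were 47.5 ± 2.13 and 295 ± 24.6 CPM (SD, n = 4 each), a 6.22-fold difference with a fitted log2 difference of 2.64 (SE 0.07, from the spread between libraries). Ranked by fold among 10501 genes with a mean of at least 5 CPM, KRT7 was at rank 5.

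KRT80 (12:52168996-52192000, minus strand) is a type II keratin found in many epithelia, close to KRT7 on the chromosome. The parental libraries held 31.2, 32.7, 32.9 and 31.4 CPM and the mutant ones 85.1, 88.0, 79.0 and 70.4. Again no mutant value fell in the parental range, and the means of 32.0 ± 0.889 and 80.6 ± 7.78 CPM (SD, n = 4) differed 2.52-fold. In both KRT7 and KRT80 mutant replicate 4 was the lowest of its group. Their coefficients of variation between mutant libraries, 8.33% for KRT7 and 9.66% for KRT80, lay at percentiles 97.0 and 98.6 of the 10501 genes, whose median was 2.78%, so both genes varied more between mutant libraries than most of those genes did. Between parental libraries their coefficients were 4.48% and 2.78%.

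**Figure D2:**
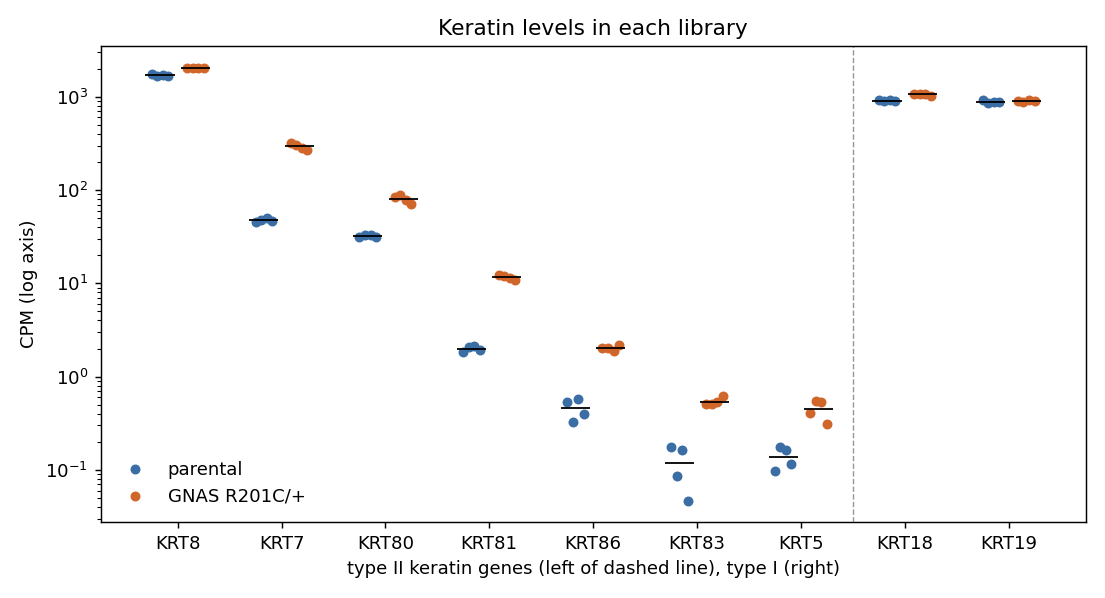
CPM of each detected keratin gene on a log axis, with 1 point per library, blue for parental and orange for GNAS R201C/+, and a bar at each group mean. Type II genes stand left of the dashed line. KRT7 has the widest gap at a high level, 47.5 against 295 CPM, while KRT19 overlaps between groups.

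Among the hair keratins KRT81 (12:52285913-52291534, minus strand) was the highest, ahead of KRT86 (12:52249300-52309163, plus strand), whose annotated span covers that of KRT81 without sharing exonic bases, and of KRT83 (12:52314301-52321398, minus strand). Its counts were 93, 95, 92 and 83 reads in the parental libraries and 571, 541, 540 and 531 in the mutant ones. All 4 mutant libraries were far above the parental ones, at 11.6 ± 0.578 against 1.99 ± 0.134 CPM (SD, n = 4), or 5.82-fold. KRT86 had 27, 15, 25 and 17 parental reads against 95, 92, 89 and 107 mutant reads, a ratio of summed reads scaled for library size of 4.42 (95% counting interval 3.48 to 5.66, counting error only). KRT83 had 9, 4, 7 and 2 parental reads against 24, 23, 25 and 30, a ratio of 4.49 with a wide counting interval of 2.81 to 7.48. The groups of KRT86 and KRT83 did not overlap either. There were 4.59 ± 1.32 KRT81 reads per KRT86 read in the parental and 5.73 ± 0.518 in the mutant libraries, ranging from 3.44 to 6.33 over the parental libraries, where KRT86 had few reads. Because reads in shared stretches could be assigned to either copy, it was not tested how many of these reads belong to each.

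KRT5 (12:52514575-52520687, minus strand) was barely detected, with 5, 8, 7 and 5 reads in the parental and 19, 25, 25 and 15 in the mutant libraries. The groups did not overlap, and the ratio of summed reads was 3.26 (counting interval 2.06 to 5.31). KRT83 and KRT5 passed the filter on low counts only through the mutant libraries. KRT23 (17:40922696-40937634, minus strand), a type I keratin, was listed at 0 in all 8 libraries. RPS18, a ribosomal protein gene that every cell uses, was listed at 0 as well. The level of KRT23, and of any other gene listed at 0, is therefore not known.

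The keratins of simple epithelia were far more abundant and differed far less. KRT8 (12:52897187-52949954, minus strand) was at 1765, 1685, 1715 and 1690 CPM in the parental and 2035, 2057, 2049 and 2034 CPM in the mutant libraries. The groups were separate, with means of 1714 ± 36.3 and 2043 ± 11.0 CPM and a fold of 1.19. KRT18 (12:52948871-52952901, plus strand), its usual type I partner, was at 920, 901, 913 and 910 against 1084, 1077, 1068 and 1019 CPM, a fold of 1.17, also without overlap. The number of KRT8 reads per KRT18 read was 1.88 ± 0.0265 in the parental and 1.93 ± 0.0508 in the mutant libraries, ranges that overlapped. KRT19 (17:41523617-41528308, minus strand), at 919, 861, 883 and 879 against 901, 886, 919 and 901 CPM with a fold of 1.02, overlapped between groups. KRT19 reads per KRT18 read were therefore fewer in the mutant, at 0.850 ± 0.0284 against 0.972 ± 0.0191, with no overlap.

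Of the 9 members that passed the filter on low counts, 8 had higher values in every mutant library than in any parental one, 0 had lower values and 1, KRT19, overlapped. Over all tested genes 20.7% were higher and 20.8% lower without overlap, and since the members were chosen on this contrast nothing is read from the members' count. Fold differences over 2 were seen in 6 members, all type II. Of these, KRT83 and KRT5 passed the filter only through the mutant libraries, and nothing is read from this count either. KRT18 and KRT19, the type I members with reads, differed by at most 1.17-fold. KRT8, KRT18 and KRT19 stood at ranks 774, 968 and 4339 by fold among the 10501 genes, against 5 for KRT7, 6 for KRT81 and 20 for KRT80. In RNA from a whole culture, fewer cells expressing a gene and less RNA per cell cannot be told apart.

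Levels were set on a common scale, CPM per kilobase of exonic length, to compare genes. KRT8 stood at 249 ± 5.28 in the parental and 297 ± 1.60 in the mutant libraries, and KRT7 at 11.6 ± 0.520 and 72.1 ± 6.0. The per-kilobase level of KRT80 was 7.36 ± 0.204 and 18.5 ± 1.79, that of KRT81 1.03 ± 0.0696 and 6.01 ± 0.299, and that of KRT86 0.192 ± 0.0489 and 0.848 ± 0.0531. KRT8 was thus 21.5 ± 1.24 times the level of KRT7 in the parental and 4.14 ± 0.344 times in the mutant libraries. The order KRT8, KRT7, KRT80, KRT81, KRT86, KRT83, KRT5 held among the type II genes in both groups, with neighbouring genes at least as far apart as their spread except KRT83 and KRT5 in the parental libraries, at 0.0631 ± 0.0330 and 0.0321 ± 0.00838. On exonic length KRT19, at 379 ± 10.5 and 386 ± 5.68, and KRT18, at 283 ± 2.46 and 330 ± 9.19, exceeded KRT8. With the length of the longest coding transcript instead, KRT8 was above both, at 703 and 839 in the parental and mutant libraries, so their order depends on the length used. KRT7 was then at 27.1 and 168, so the ratio of KRT8 to KRT7 depends on the length as well.

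Summed per library, the type II members came to 276, 265, 271 and 265 CPM per kilobase in the parental and 401, 402, 393 and 384 in the mutant libraries, 1.47-fold higher. The type I members came to 679, 648, 662 and 659 against 723, 714, 725 and 702, 1.08-fold higher. KRT23 enters this sum at its listed 0 although its level is not known. The type I side of the sum and of the ratio thus rests on KRT18 and KRT19. The type II to type I ratio was 0.407 ± 0.00301 in the parental and 0.551 ± 0.00941 in the mutant libraries (SD, n = 4), 1.36 times as high. With the coding-transcript length it was 0.630 ± 0.00423 and 0.812 ± 0.0108, 1.29 times as high, so the ratio itself depends on the length used. Leaving out each library in turn gave 1.35 to 1.36, and the ratio does not depend on library scaling. Without KRT8 and KRT18, a choice made after seeing the data, it was 4.74 times as high, since KRT7 and KRT80 then make up most of the type II sum. KRT7 made up 4.31% ± 0.227 of the type II level in the parental and 18.2% ± 1.15 in the mutant libraries, while KRT8 made up 92.5% ± 0.354 and 75.2% ± 1.5. Within type I, KRT18 took 42.8% ± 0.476 and 46.1% ± 0.825. All members together took 0.360% of all reads in the parental and 0.439% in the mutant libraries.

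**Figure D3:**
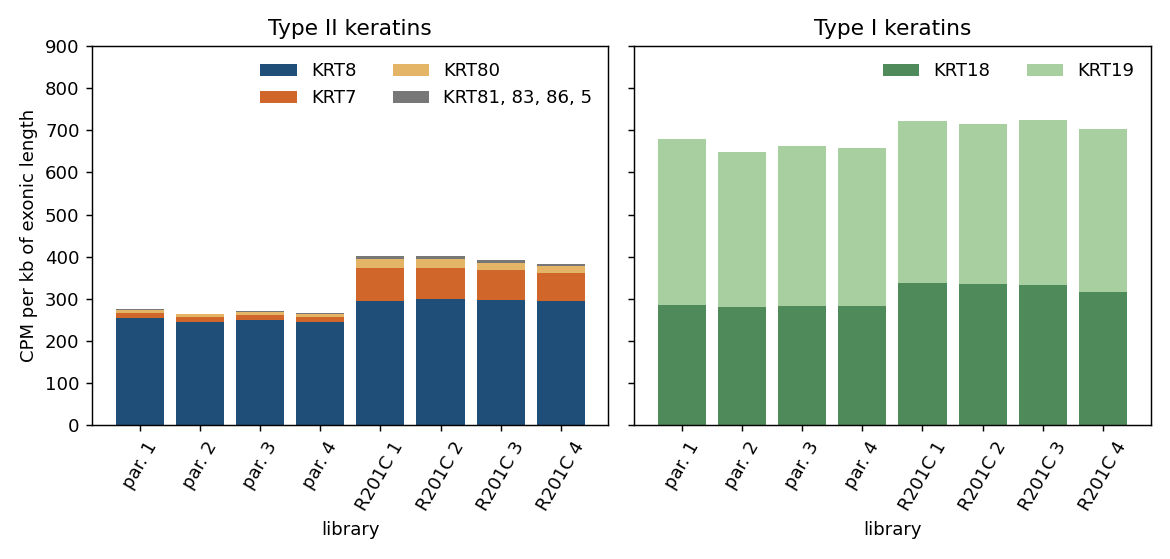
Type II (left) and type I (right) keratin levels in each library, in CPM per kilobase of exonic length, stacked by gene, with par. for parental and R201C for GNAS R201C/+ libraries. The KRT7 part of the type II bars is 4.31% on average in the parental and 18.2% in the mutant libraries. The heights of both panels depend on the length used. KRT23, listed at 0 and of unknown level, has no part in the type I bars.

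The other 45 keratin genes mostly had few or no reads, and 17 were listed at 0 in all libraries. As for KRT23, a listed 0 leaves the level of a gene unknown. Only 6, all type I, had enough reads to be tested, and of these 0 rose, 2 fell and 4 did not pass, so 33.3% were called against 48.1% of all tested genes, with a median log2 difference of -0.25 beside 0.002 over all tested genes. KRT15, a type I keratin of basal and stem cells of stratified epithelia, fell from 22.5 ± 0.228 to 15 ± 0.845 CPM (log2 -0.59, SE 0.04, edgeR adjusted p = 2.65e-15). KRT32, a type I hair keratin, fell from 0.859 ± 0.0998 to 0.356 ± 0.0449 CPM (log2 -1.27, edgeR adjusted p = 1.39e-06). KRT10, a type I keratin of the upper epidermis, was at 40.1 ± 0.622 and 40.0 ± 1.51 CPM (edgeR adjusted p = 0.914), and KRT222 at 1.90 and 2.07 (edgeR adjusted p = 0.367). KRT13 was at 0.415 and 0.362 CPM (log2 -0.20, edgeR adjusted p = 0.525), and KRT16 at 0.262 and 0.212 (log2 -0.30, edgeR adjusted p = 0.437). With no filter on low counts 28 were tested and edgeR called 3, KRT15 and KRT32 lower and KRT17, another type I keratin, higher (edgeR adjusted p = 0.0339) on 0, 1, 0 and 1 parental and 5, 2, 3 and 4 mutant reads. Of the other type II keratins, 16 had at most 8 reads in any library and 3 had none. Annotated pseudogenes of KRT8 numbered 50, of which 42 had reads, together 804 to 1033 reads per library or 0.944% to 1.12% of the KRT8 count.

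The chromosome 12 members lie in one cluster, and all genes from 1 Mb before to 1 Mb after it were examined. Of 99 non-keratin genes there, 44 were tested, 12 rose, 6 fell and 26 did not pass, so 40.9% were called against 48.1% of all tested genes, and their median log2 difference was 0.01. The calls of SCN8A and ESPL1, lower, were lost with DESeq2 and without some single libraries. Those of PFDN5, SPRYD3 and CALCOCO1, higher, were lost when certain single libraries were left out. Against a 1.5-fold change 0 of the 44 were called. ATG101, the nearest tested gene before the cluster and a component of autophagy initiation, stood at 53.2 ± 1.02 and 53.6 ± 1.12 CPM (log2 0.01, edgeR adjusted p = 0.784). EIF4B, a translation initiation factor and the nearest tested gene after it, was at 771 ± 19.2 and 749 ± 10.1 CPM (log2 -0.04, edgeR adjusted p = 0.0904), and was called with library totals as the scaling and without parental replicate 2 (lowest adjusted p 0.0348). The called genes with the smallest p were TNS2, a focal adhesion protein gene that rose from 25.3 ± 1.14 to 34.2 ± 2.12 CPM (log2 0.43, edgeR adjusted p = 2.60e-11), MAP3K12, a kinase gene that fell from 24.5 ± 0.333 to 19 ± 0.969 (log2 -0.37, edgeR adjusted p = 2.82e-10), the nuclear receptor gene NR4A1, which rose from 21.7 ± 0.340 to 26.7 ± 1.66 (log2 0.30, edgeR adjusted p = 3.66e-08), and the bicarbonate transporter gene SLC4A8, which fell from 4.18 ± 0.267 to 2.60 ± 0.266 (log2 -0.68, edgeR adjusted p = 5.76e-08).

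Within the cluster only the noncoding RNA gene LINC00592, whose span covers KRT80 on the opposite strand without sharing exonic bases, could be tested. It rose from 0.252 ± 0.0480 to 0.551 ± 0.0754 CPM (log2 1.12, edgeR adjusted p = 2.00e-04), on 9 to 14 parental and 22 to 31 mutant reads. KRT7-AS, which shares 282 exonic bases with KRT7 on the opposite strand, had 1 to 4 parental and 4 to 7 mutant reads and was not tested. Where counting does not use strand, reads from a gene and its antisense partner cannot be told apart.

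**Figure D4:**
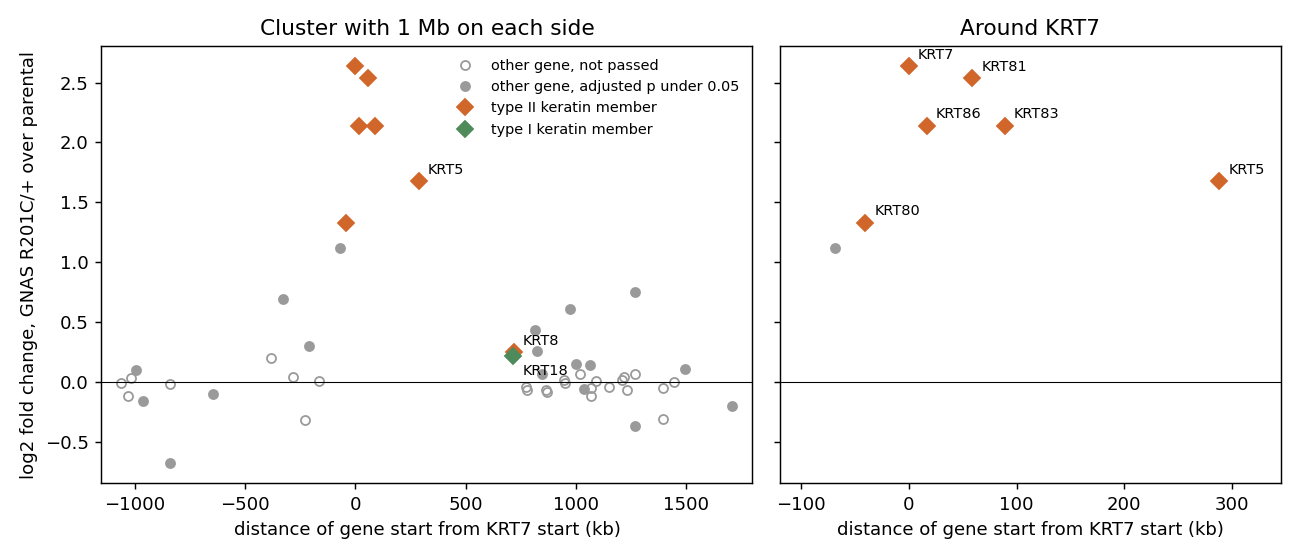
Log2 difference of each tested gene plotted against the distance of its start from the start of KRT7 in kb, for the whole cluster with 1 Mb on each side (left) and around KRT7 (right). Orange diamonds are type II members, green diamonds type I members, filled grey circles other genes with adjusted p under 0.05, and open circles other genes that did not pass. The neighbours scatter around 0 (median 0.01), while KRT7, KRT81, KRT86 and KRT83 lie above 2.

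Genes that keratin filaments work with were then described by list. These lists and the marker lists below were chosen with earlier results of these data known. Nothing is therefore read from their shares called beside that of all tested genes. Of 16 tested genes of keratin anchoring and desmosomes, the junctions to which keratin attaches, 9 rose, 3 fell (DST, DSC3 and TCHP) and 4 did not pass, with a median log2 difference of 0.11 beside 0.002 over all genes. ITGB4, the integrin chain of hemidesmosomes, rose from 431 ± 9.51 to 762 ± 14.2 CPM (log2 0.82, edgeR adjusted p = 3.04e-31). PPL and EVPL, which encode plakins of the cell envelope, rose from 113 ± 0.995 to 164 ± 3.62 (log2 0.53, edgeR adjusted p = 1.64e-23) and from 107 ± 2.85 to 134 ± 3.16 (log2 0.32, edgeR adjusted p = 4.52e-15). The DSC3 call was lost without parental replicate 3 (adjusted p = 0.0621) and in the test against a 1.5-fold change. That of PLEC, a plakin gene among those that rose, was lost with limma-voom, DESeq2 size factors and library totals. It was also lost without parental 1 and 4 and mutant 1 and 3, each left out singly, and in the test against a 1.5-fold change. The adjusted p of PLEC reached 0.131 over the other alternatives. JUP, plakoglobin, rose from 238 ± 7.23 to 274 ± 9.27 CPM (log2 0.20, edgeR adjusted p = 3.45e-09). Among the other intermediate filament genes 5 of 10 tested rose (DES, BFSP1, SYNC, SYNM and PRPH) and 2 fell (VIM and LMNA). That was 70.0% called against 48.1% of all tested genes, with a median of 0.10. DES, the muscle filament gene desmin, rose from 3.62 ± 0.284 to 6.0 ± 0.3 CPM (log2 0.72, edgeR adjusted p = 2.66e-10), and VIM, vimentin, fell from 4.61 ± 0.457 to 2.86 ± 0.299 CPM (log2 -0.69, edgeR adjusted p = 3.86e-08). BFSP1, a lens filament gene, rose by log2 0.38 (edgeR adjusted p = 3.81e-07), and SYNC, a filament-associated muscle gene, by 0.52 (edgeR adjusted p = 2.99e-06).

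Of 25 tested transcription factor genes linked to epithelial keratin expression, 10 rose, 8 fell and 7 did not pass. That was 72.0% called against 48.1% of all tested genes, with a median of 0.05. FOSL1, an AP-1 subunit, fell from 127 ± 0.835 to 88.2 ± 4.35 CPM (log2 -0.52, edgeR adjusted p = 2.16e-19), and ETS1 fell from 14.1 ± 0.906 to 7.12 ± 0.409 (log2 -0.98, edgeR adjusted p = 3.98e-18). JUNB, another AP-1 subunit, rose from 50.1 ± 2.61 to 66.6 ± 2.49 (log2 0.41, edgeR adjusted p = 8.80e-13), and the epithelial factor ELF3 fell from 41.3 ± 1.11 to 34.7 ± 1.46 (log2 -0.25, edgeR adjusted p = 1.90e-08). The calls of GRHL1 and JUN, lower, and GRHL3, higher, were lost with DESeq2 and without some single libraries. They were also lost in the test against a 1.5-fold change, and their adjusted p reached 0.138, 0.152 and 0.112 over the other alternatives. Of 20 tested genes whose products bind, fold or modify keratins, 10 rose and 4 fell (PNN, YWHAH, TGM2 and PRKCE). The other 6 did not pass, so 70.0% were called against 48.1% of all tested genes, with a median of 0.05. The TGM2 call was lost with DESeq2 and without each of 5 libraries, parental 1, 3 and 4 and mutant 2 and 4. It was also lost in the test against a 1.5-fold change, and its adjusted p reached 0.295 over the other alternatives. The autophagy adaptor SQSTM1 rose from 36.0 ± 1.3 to 46.7 ± 0.974 CPM (log2 0.38, edgeR adjusted p = 2.06e-13) and SFN, a 14-3-3 protein gene, from 196 ± 7.14 to 220 ± 4.10 (log2 0.17, edgeR adjusted p = 6.46e-08). PNN, which encodes a keratin-binding nuclear protein, fell from 302 ± 8.83 to 261 ± 9.30 (log2 -0.21, edgeR adjusted p = 3.43e-09).

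Hair and squamous markers were examined because hair keratins and KRT5 belong to those tissues. Of 17 squamous and cornified epithelium markers 13 were listed at 0, including IVL, the envelope protein involucrin, and only CNFN was tested, which rose by log2 0.41 (edgeR adjusted p = 6.07e-03) at 1.66 ± 0.0717 and 2.21 ± 0.425 CPM. The whole list summed to 1.62 to 1.76 CPM in the parental and 1.63 to 2.62 in the mutant libraries, ranges that overlapped. The CNFN call was lost in the test against a 1.5-fold change, and its adjusted p reached 0.0436 over the other alternatives. Of 12 hair follicle and hair shaft genes 3 were tested, and all 3 were called, against 48.1% of all tested genes. MSX2, a homeobox gene of the hair matrix, rose from 11.9 ± 0.760 to 22.2 ± 1.79 CPM (log2 0.90, edgeR adjusted p = 6.91e-15) and S100A3, a calcium-binding protein of hair cuticle, from 4.53 ± 0.251 to 6.56 ± 0.449 (log2 0.54, edgeR adjusted p = 6.62e-08). HOXC13, a regulator of hair keratin genes, fell from 7.94 ± 0.541 to 6.92 ± 0.358 (log2 -0.20, edgeR adjusted p = 9.42e-03). LEF1 and PADI3, other hair markers, were listed at 0. As for KRT23, the level of the squamous and hair genes listed at 0 is not known.

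Colon epithelial markers moved in the same libraries. Of 7 tested, 6 rose and 1, CDX2, fell (log2 -0.09, edgeR adjusted p = 0.0421). Over all tested genes 48.1% were called and 24.1% were higher. Those tested include the general epithelial markers EPCAM, CDH1, CLDN3, CLDN4 and CLDN7, and the other 7 of the 14 listed had too few reads to test. The summed level was 700 to 718 CPM in the parental and 800 to 809 in the mutant libraries. CDH1, E-cadherin, rose by log2 0.33 (edgeR adjusted p = 6.71e-15), and the tight-junction genes CLDN3, CLDN7 and CLDN4 by 0.61, 0.15 and 0.23 (edgeR adjusted p = 2.41e-12, 1.35e-06 and 3.10e-06). The CDX2 call was lost when low counts were not filtered, with DESeq2, and without each of 5 libraries, parental 3 and 4 and mutant 1, 2 and 3. It was also lost with the replicate block and in the test against a 1.5-fold change. Its adjusted p reached 0.130 over the alternatives other than that last test. The part of these markers in the keratin differences was not tested. Leukocyte markers summed to 0.652 to 1.16 CPM in the parental and 0.782 to 1.09 in the mutant libraries, with PTPRC and CD3D at 0, and 0 of 1 tested was called. Fibroblast markers summed to 67.4 to 72.0 and 67.3 to 73.0 CPM, with DCN, LUM and PDGFRA at 0, and 1 of 4 tested rose, ACTA2, by log2 0.31 (edgeR adjusted p = 3.11e-03). Endothelial markers summed to 6.96 to 7.38 and 6.54 to 7.19 CPM, with CLDN5 at 0 and neither ESAM (edgeR adjusted p = 0.119) nor VWF (edgeR adjusted p = 0.563) called.

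**Figure D5:**
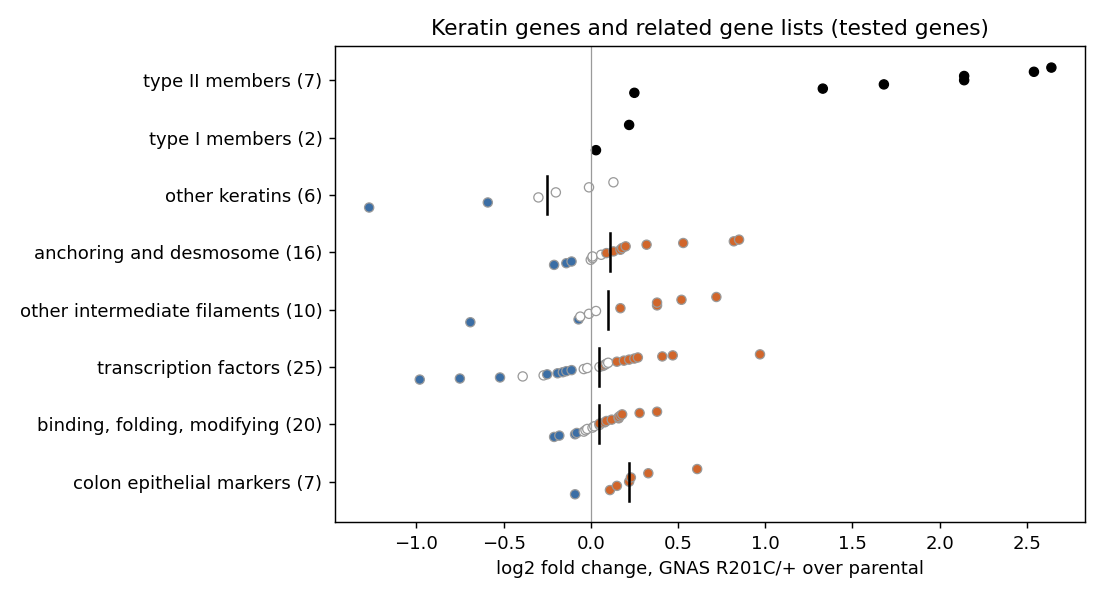
Log2 difference of each tested gene by list. Orange points rose, blue points fell, white points did not pass, and black points are the members, which were not tested. The vertical bar is the median of each list other than the members. The anchoring and desmosome list has 9 genes higher of 16, beside 24.1% higher over all tested genes, and the type II members reach 2.64.

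Genes whose profile over the 8 libraries was most like that of KRT7 were named by distance on log2 levels centred on the parental mean. Such a distance is set largely by the size of the group difference, the contrast on which the members were chosen. The candidates were 10493 of the 10501 genes with a mean of at least 5 CPM, leaving out 6 members and 2 genes without a symbol. Between members, KRT7 and KRT81 were 0.22 apart, nearer to each other than either was to any candidate, while KRT80 was 2.61 from KRT7 and 2.42 from KRT81. The candidates nearest to KRT7 were HPD, an enzyme of tyrosine breakdown, at a distance of 0.57, PRKAA2, an AMP-activated kinase subunit, at 0.77, COL4A6, a basement membrane collagen chain, at 0.95, SEMA3C, a secreted guidance factor, at 1.43 and PLPP3, a lipid phosphatase, at 2.04. HPD stood at 1.64 ± 0.204 and 9.17 ± 0.413 CPM and SEMA3C at 28.4 ± 1.17 and 108 ± 2.17. Within the mutant libraries HPD rose from 8.58 CPM in replicate 1 to 9.53 in replicate 4, while KRT7 fell from 321 to 266. KRT81 had the first 3 of these as its nearest candidates as well, at 0.49, 0.58 and 0.78. The candidate nearest to KRT80 was DKK1, a secreted Wnt inhibitor, at 0.24, with levels of 167 ± 5.56 and 441 ± 16.7 CPM, followed by COL4A5 at 0.27 and the glucose transporter gene SLC2A1 at 0.38.

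In a table of promoters around gene starts from RefSeq (GRCh38.p14), KRT5 and KRT8 were the members found. Both strands were searched for TGACGTCA, the full cAMP response element, which 1.85% of all 35116 promoters hold, and it matched neither. TGACG, its short form and part of it, held by 24.6% of promoters, matched 1 time in KRT5 and 0 times in KRT8. TATAAA (11.5% of promoters), TGANTCA (7.71%), GGGCGG (45%) and GCCNNNGGC (23.2%) matched neither promoter.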

How the data were processed

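RNA-seq of 8 HCT116 libraries, 4 parental and 4 GNAS R201C/+, was analysed from the deposited raw read counts, whole numbers for 60609 Ensembl genes. A directional library kit was used on total RNA, per the labels' protocols. The submitters' processing notes name GRCh38.p12 and the tools STAR, featureCounts, bcl2fastq, DESeq2 and Trimmomatic. Not given in the sources used here are tool versions, the annotation release, the strand setting and the treatment of multi-mapping reads. Identifiers were matched without version to GENCODE 29 (58457) or a table of gene names (2088), and 64 matched neither.

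In R 4.3.3 with edgeR 4.0.16, genes passing a minimum count of 10 and a minimum total of 15 (15751 of 32806 with reads) were scaled with TMM factors and tested with the quasi-likelihood F test, group as the only term, and Benjamini-Hochberg adjustment at 0.05 over all tested genes. The code was tested on simulated data. CPM use TMM-scaled libraries, and SEs come from the spread of log2 CPM with a prior count of 0.5. Exonic length is the union of exons. Shared stretches of 75 bases were found with exact matching in principal transcripts, and identity with mafft 7.526. Depth is 42584988 to 50986733 counts per library, and intervals at 95% cover counting error only. The alternatives were DESeq2 1.42.0, limma-voom (limma 3.58.1), other scalings and filters, a replicate block, a threshold fold of 1.5 in the test itself, each library left out, other lengths and stretch lengths, and a window of 0.5 Mb. No 2 libraries agreed within sampling noise (chi-square per degree of freedom 1.57 to 3.76).

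The members and the gene lists were chosen with earlier results of these data known. Genes named are the 10 members, and from each list, the other keratins and the neighbouring genes the called genes of smallest adjusted p (up to 4), with up to 2 tested genes of highest level standing in for them in a list that had no call. Genes named to spell out a small count or a lost call were chosen after their values were seen. All 6 tested keratins outside the members are named, with or without a call. Undetected list genes, the nearest neighbours on each side, overlapping genes and the genes most like KRT7, KRT81 and KRT80 are named too. A few named genes and 1 sequence that these rules would include are not reported here.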

Additional observations from a re-analysis of the deposited data

How the results depend on the processing

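Of the values recomputed under the alternatives, 341 stayed on their side of the threshold, within the spread or, for counts, within 1.5 times the main count, and 42 moved, most of these being shares of stretches in common at other stretch lengths. A count within that range does not show that the same genes were called. No recomputed log2 difference of a member and no type II to type I ratio reversed. Against a 1.5-fold change, edgeR called 256 genes over the whole table (138 higher, 118 lower) in place of 7577, 1 of the other keratins (KRT32), 0 of the neighbouring genes, 1 anchoring gene, 0 other filament genes, 1 transcription factor gene, 0 genes that bind or modify keratins, 0 squamous, 1 hair, 0 colon epithelial and 0 fibroblast genes. With at least 1 CPM in 4 libraries, 1 other keratin was called, since fewer were tested. With no filter on low counts 2 fibroblast markers were called, and with a window of 0.5 Mb 11 of 28 tested neighbouring genes (9 higher, 2 lower). The type II to type I ratio was 1.29 times as high in the mutant with the coding-transcript length and 4.74 times without KRT8 and KRT18. Leaving out each library in turn gave 6905 to 7442 called genes, 2 to 2 other keratins, 16 to 20 neighbouring genes, 11 to 13 anchoring genes, 7 to 8 other filament genes, 16 to 19 transcription factor genes, 12 to 14 genes that bind or modify keratins, 6 to 7 colon epithelial markers, a KRT7 log2 difference of 2.59 to 2.69 and a type ratio 1.35 to 1.36 times as high in the mutant. Replicate numbers did not pair the samples (same-number correlations -0.04 to 0.05). With the replicate block 7413 genes were called, CDX2 was not, and the KRT7 log2 difference was 2.64. Counts of a few reads limit KRT83 and KRT5, and sequence shared between copies limits KRT81 and KRT86.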
